A study of Mus musculus with 8 samples.

Results

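Expression of 10 genes for the enzymes that hydroxylate and cross-link collagen was compared in mouse tendon-derived stem cells (TSCs) cultured in HFHG or low glucose (LG) medium. The genes were taken by symbol, and all 10 were found among the 19301 genes of the expression table. They comprise 5 lysyl oxidases (Lox, Loxl1, Loxl2, Loxl3 and Loxl4), 3 lysyl hydroxylases (Plod1, Plod2 and Plod3) and 2 alpha subunits of prolyl 4-hydroxylase (P4ha1 and P4ha2).

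Primary TSCs were grown out of collagenase-digested patellar tendon of C57BL/6J mice, whose age at isolation is not given in the sources used here. The LG group received 5.5 mM glucose with DMSO and the HFHG group a high glucose concentration with 300 µM palmitic acid, a saturated fatty acid, and RNA was taken after 4 days. Each group had 4 biological replicates, and whether these came from separate animals is not stated, so p-values measure the spread between these cultures. Glucose and palmitic acid were changed together, and their effects cannot be told apart.

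Collagen chains are modified in the endoplasmic reticulum before they fold. Prolyl 4-hydroxylase, a tetramer of alpha subunits with P4HB, hydroxylates prolines and so stabilizes the triple helix, while lysyl hydroxylases act on lysines and set which kind of cross-link can form. After secretion, the copper-dependent lysyl oxidases oxidize lysines and hydroxylysines of collagen and elastin, which then react into the cross-links that give tendon its tensile strength. Both hydroxylase families need iron, 2-oxoglutarate and ascorbate.

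The values are FPKM, that is, fragments per kilobase of gene and scaled by a total of the library, so they compare levels between genes per length. Read numbers were recovered from the FPKM, and the library totals were 35385644 to 37362725 in HFHG and 34308108 to 36308533 in LG. Of these totals 99.82% to 99.85% lay on the listed genes, so they need not be all mapped fragments. Reads on a single enzyme gene ran from 577 (Loxl4, LG) to 525220 (Lox, HFHG). LG replicate 4 stood apart, since the variance of its reads against the other LG replicates was 8.17 to 11.9 times the sampling variance, compared with 3.45 to 4.78 times in all other replicate pairs. All tendon markers but Tnmd stayed above 0.5 FPKM in each library. Thbs4 averaged 370 ± 4.29 FPKM in HFHG against 168 ± 3.74 FPKM in LG (SD, n = 4). Scx averaged only 2.27 ± 0.558 against 1.45 ± 0.336 FPKM, and its values overlapped between the groups. Tnmd averaged 1.10 ± 0.0908 against 0.614 ± 0.298 FPKM, with a lowest LG value of 0.220 FPKM. Both Scx and Tnmd were called higher in HFHG, whereas the paper reports a decrease of both by qPCR, and of TNMD also as protein. In that qPCR, whose culture time is not stated, the paper found no significant change of Mkx. Of the 7 tendon markers 5 were higher in HFHG, among them Tnc (log2 fold change 1.06), and 2 were lower, namely Mkx (-0.35) and Egr1 (-0.40). Macrophage markers were present too, with 7 of 8 above the filter on low values. Their summed level was 1709 to 1759 FPKM in HFHG and 1870 to 1950 FPKM in LG, most of it from Lyz2. In HFHG 6 of the 7 were lower, compared with 30.8% of all genes tested. With FPKM rescaled to the same sum 5 were lower, and Csf1r was no longer called (adjusted p = 0.227 by limma). Lyz2 itself was not called with quantile normalization, where its log2 fold change was 0.01. Their part in the results was not tested, and in such bulk RNA fewer cells of a type and less RNA per cell cannot be told apart. The endothelial markers Pecam1, Cdh5, Kdr and Tie1, the osteoblast markers Sp7, Ibsp, Alpl and Dmp1 and the adipocyte markers Adipoq, Plin1, Pparg and Lep stayed below 0.5 FPKM in each library, as did 4 of 5 skeletal muscle markers. The remaining markers of these lists were detected. Fabp4 (adipocyte) was higher in HFHG, at 68.4 ± 3.03 FPKM against 26.6 ± 2.61 FPKM in LG, and so was Runx2 (osteoblast), at 4.73 ± 0.156 against 4.07 ± 0.163 FPKM. With quantile normalization Runx2 was not called (log2 fold change 0.14, adjusted p = 0.0504 by limma). Vwf (endothelial) was lower, at 0.393 ± 0.0271 against 1.04 ± 0.0763 FPKM, as was Acta1 (skeletal muscle), at 0.904 ± 0.252 against 3.38 ± 0.378 FPKM. Bglap (osteoblast) reached 0.977 FPKM in 1 library and was below the filter. The part of these markers in the results was not tested.

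The lysyl oxidases and the hydroxylases moved apart in HFHG. All 5 lysyl oxidase genes rose, from 1.15-fold (Loxl2) to 2.26-fold (Loxl3), with a median log2 fold change of 0.60. Of the 5 hydroxylase genes, Plod1, Plod3 and P4ha2 fell by 21.1%, 13.8% and 19.5% of their LG level, and Plod2 and P4ha1 did not pass the test. A gene was called where its limma p-value stayed below 0.05 after Benjamini-Hochberg adjustment over the 11710 genes tested. Calls were frequent in this comparison, at 64.8% of all genes tested, of which 34.0% of those tested were higher and 30.8% lower in HFHG, around a median log2 fold change of 0.02. Against this background, 8 of the 10 enzyme genes were called, 5 higher and 3 lower. The study's own criterion was a more than 2-fold change at an unadjusted p below 0.05. Lox and Loxl3, 2 of the 10, met it in the upward direction, compared with 3.68% of genes tested (431 genes). This share rests on limma and the filter on low values used here. The paper reports a larger number of upregulated genes at its criterion, and its filter is not given in the sources used here. In each of the 10 genes the HFHG values did not overlap with the LG values, which was also the case for 59.2% of the genes tested.

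**Figure D1:**
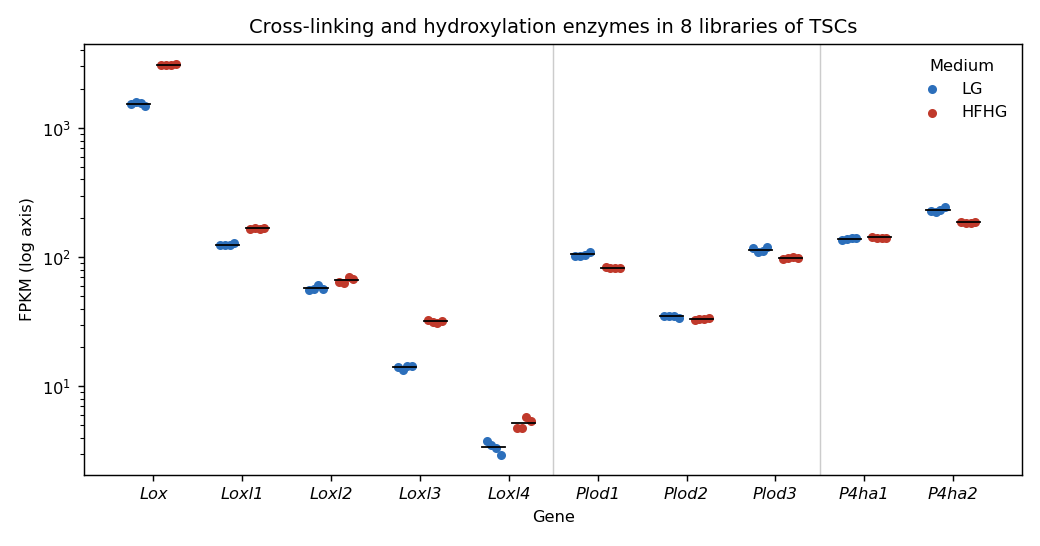
FPKM of the 10 enzyme genes (log axis) in each of the 4 LG (blue) and 4 HFHG (red) libraries, with the mean of each group as a black line and grey lines between the lysyl oxidases, lysyl hydroxylases and prolyl 4-hydroxylase alpha subunits. Lox lies far above the other genes, at about 1542 FPKM in LG and 3100 FPKM in HFHG.

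Lox was by far the most abundant of the 10. This gene on chromosome 18 of GRCm38 (52516067 to 52529867, minus strand) encodes the main lysyl oxidase of fibrillar collagen. Its expression in HFHG replicates 1 to 4 was 3060, 3097, 3089 and 3154 FPKM, and in LG replicates 1 to 4 it was 1542, 1586, 1556 and 1483 FPKM. The lowest HFHG library thus lay far above the highest LG library. The log2 fold change was 1.01 with a standard error of 0.0230 (adjusted p = 2.09e-12 by limma). Among all genes of the table, Lox ranked 5 in each HFHG library and 21 to 26 in the LG libraries. Its fold change was close to the threshold of 2-fold, and it dropped to 0.99 on the log2 scale with median-ratio scaling or without LG replicate 4, and without HFHG replicate 4 it lay just under the threshold.

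Loxl3, which encodes a lysyl oxidase with scavenger receptor domains, had the largest fold change of the 10, from a low level. It was 32.9, 31.5, 31.2 and 31.9 FPKM in HFHG replicates 1 to 4 and 14.1, 13.3, 14.4 and 14.3 FPKM in LG replicates 1 to 4. The groups were far apart relative to their spread, at 1.18 on the log2 scale with a standard error of 0.0362 (adjusted p = 2.74e-11 by limma). Loxl3 lies on chromosome 6 from 83034173 to 83052562, where it overlaps Htra2 on the other strand.

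Loxl1, whose product is required for elastic fibre renewal, was the next most abundant lysyl oxidase. Its values were 166, 169, 167 and 167 FPKM in HFHG and 124, 124, 123 and 129 FPKM in LG, with no overlap. This was a log2 fold change of 0.42 (standard error 0.0224, adjusted p = 4.88e-09 by limma). Loxl4, the least abundant member, had 4.79, 4.72, 5.75 and 5.39 FPKM in HFHG and 3.78, 3.51, 3.32 and 2.93 FPKM in LG. Its groups were separate but its spread was wider than that of the other members, with a log2 fold change of 0.60 and a standard error of 0.0882 (adjusted p = 6.72e-05 by limma). Loxl2 had the smallest increase. It encodes an oxidase that cross-links collagen IV of basement membranes, and it measured 64.5, 62.9, 69.6 and 68.3 FPKM in HFHG and 56.2, 56.6, 60.7 and 56.8 FPKM in LG. The gap between the lowest HFHG value and the highest LG value was narrow, and the difference came to 0.20 on the log2 scale with a standard error of 0.0378 (adjusted p = 4.34e-04 by limma). Loxl1, Loxl2 and Loxl4 are on chromosomes 9 (58287738 to 58313186), 14 (69609068 to 69695834) and 19 (42593982 to 42612813).

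Of the lysyl hydroxylases, Plod1 and Plod3 were lower in HFHG and Plod2 was not called. Plod1 encodes the enzyme that hydroxylates lysines in the helical part of collagen. Plod1 was 83.6, 82.7, 83.1 and 82.7 FPKM in HFHG replicates 1 to 4 and 103, 103, 104 and 110 FPKM in LG replicates 1 to 4, with LG replicate 4 the highest. The difference was -0.34 on the log2 scale with a standard error of 0.0272 (adjusted p = 2.31e-07 by limma), and it was -0.32 without LG replicate 4. Plod3 encodes an enzyme that adds sugars to hydroxylysine besides hydroxylating lysine. Its 96.8, 98.6, 101 and 98.7 FPKM in HFHG were all below its 117, 110, 112 and 119 FPKM in LG, a difference of -0.21 on the log2 scale (standard error 0.0291, adjusted p = 3.27e-05 by limma).

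Plod2 encodes the hydroxylase of the collagen telopeptides, which directs cross-links to the hydroxylysine-derived kind known from bone and fibrosis. It was 32.8, 33.0, 33.3 and 34.0 FPKM in HFHG and 35.2, 35.1, 35.1 and 34.0 FPKM in LG. HFHG replicate 4 and LG replicate 4 almost met, and the log2 fold change of -0.07 had a 95% interval of -0.13 to -0.01. With an adjusted p-value of 0.0535 by limma, Plod2 did not pass. Its call depended on the setting, since the adjusted p-value was 0.0234 without LG replicate 4, 0.0499 without HFHG replicate 4, 0.0194 with median-ratio scaling and 0.850 with FPKM rescaled to the same sum. The splice forms of Plod2, which differ in telopeptide activity, were not resolved in a table of 1 value per gene. Plod1 lies on chromosome 4 (147909753 to 147936767), Plod2 on chromosome 9 (92542223 to 92608428) and Plod3 on chromosome 5 (136987019 to 136996648).

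Between the alpha subunits of prolyl 4-hydroxylase, P4ha2 fell and P4ha1 was not called. P4ha1, the subunit most cells rely on, was 143, 142, 142 and 142 FPKM in HFHG and 137, 139, 141 and 140 FPKM in LG. All HFHG values were above all LG values by a small margin, and the log2 fold change of 0.03 had a 95% interval of -0.02 to 0.08 (adjusted p = 0.248 by limma). P4ha1 was called higher with FPKM rescaled to the same sum (0.09, adjusted p = 0.00232) and with quantile normalization (0.06, adjusted p = 0.0221). P4ha2 encodes the subunit typical of chondrocytes, osteoblasts and other matrix-producing cells. It was 188, 185, 185 and 188 FPKM in HFHG and 228, 224, 230.4 and 244 FPKM in LG. The LG values spread more widely than the HFHG values and lay above each of them, with a log2 fold change of -0.31 (standard error 0.0274, adjusted p = 5.63e-07 by limma). P4ha1 is on chromosome 10 (59323296 to 59373304) and P4ha2 on chromosome 11 (54100095 to 54131665).

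**Figure D2:**
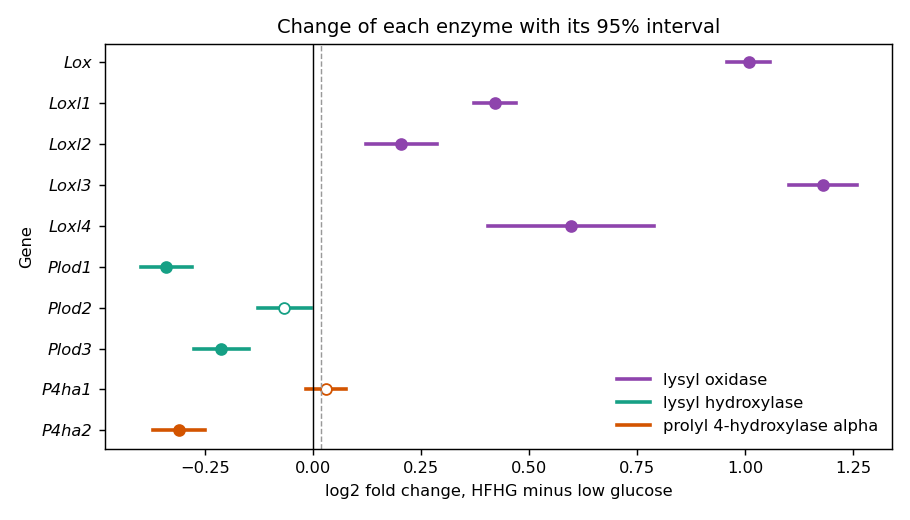
Log2 fold change (HFHG minus low glucose) of each enzyme gene with its 95% interval by limma, coloured by family. Filled points have an adjusted p-value below 0.05, open points do not, and the dashed line is the median of all genes tested (0.02). The 5 lysyl oxidases lie between 0.20 and 1.18 and the 5 hydroxylases between -0.34 and 0.03.

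The order of the levels was nearly the same in both media. In LG it ran from Lox (1542 ± 43.3 FPKM, SD, n = 4) through P4ha2 (232 ± 8.88), P4ha1 (139 ± 1.92), Loxl1 (125 ± 2.39), Plod3 (115 ± 4.13), Plod1 (105 ± 3.58), Loxl2 (57.6 ± 2.11), Plod2 (34.9 ± 0.571) and Loxl3 (14.0 ± 0.491) to Loxl4 (3.39 ± 0.359). Only the neighbours Plod3 and Plod1 overlapped in LG. In HFHG, Loxl1 (167 ± 1.46 FPKM) stood above P4ha1 (142 ± 0.912 FPKM), and Loxl3 (31.9 ± 0.734 FPKM) came within the spread of Plod2 (33.3 ± 0.525 FPKM).

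Ratios between genes of the same library do not change when that library is multiplied by a factor, but they can change with quantile normalization, which was therefore added as an alternative after the data were seen. A total of 8 ratios were compared by exact permutation (two-sided, all 70 ways to divide the 8 libraries into groups of 4). The HFHG and LG values were separate in each of the 8, which gives p = 0.0286, the smallest this exact permutation test allows, and 0.0286 after adjustment over the 8 ratios. Within the lysyl oxidases, the level of Lox was 11.5 ± 0.120 times the sum of the other 4 genes in HFHG and 7.71 ± 0.299 times in LG (SD, n = 4). Lox thus held 92.0% of the summed lysyl oxidase level in HFHG and 88.5% in LG.

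Within the hydroxylase families the balance moved as well. The ratio of P4ha2 to P4ha1 was 1.31 ± 0.00924 in HFHG and 1.66 ± 0.0600 in LG. Plod2 relative to Plod1 was 0.401 ± 0.00781 in HFHG and 0.332 ± 0.0161 in LG, and relative to Plod3 it was 0.337 ± 0.00647 and 0.305 ± 0.0146. Plod2 therefore made up more of the lysyl hydroxylase transcripts in HFHG, where Plod1 and Plod3 were lower and its own level was not called. The sum of P4ha1 and P4ha2 relative to P4hb, the beta subunit, was 0.556 ± 0.00669 in HFHG and 0.459 ± 0.00669 in LG, a log2 difference of 0.28. The direction of this ratio depended on the scaling, since with quantile normalization the difference was -0.037 and the groups overlapped (exact permutation p = 0.0571). P4hb was 586 to 596 FPKM in HFHG and 790.3 to 821 FPKM in LG, a difference of -0.45 on the log2 scale (adjusted p = 7.27e-10 by limma). With quantile normalization the log2 fold change of P4hb was -0.08, still past the threshold (adjusted p = 7.36e-04).

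The substrates rose at the same time. Col1a1 was 529 ± 8.68 FPKM in HFHG and 206 ± 3.95 FPKM in LG, Col1a2 629 ± 7.48 and 437 ± 3.64 FPKM, and Col3a1 229 ± 3.25 and 122 ± 3.51 FPKM (SD, n = 4). Their log2 fold changes were 1.36, 0.53 and 0.91, and that of Col1a2 was 0.84 with quantile normalization. Per unit of these 3 collagen transcripts, the lysyl oxidase sum was 2.43 ± 0.0450 in HFHG and 2.28 ± 0.0524 in LG, 1.07-fold higher. This sum was mostly Lox, and Loxl1 (0.42) and Loxl2 (0.20) had smaller log2 fold changes than each of the 3 collagen genes, a comparison that was not tested. The lysyl hydroxylase sum per collagen was 0.155 ± 0.00269 in HFHG and 0.333 ± 0.0105 in LG, which is 2.15-fold lower in HFHG. The prolyl 4-hydroxylase alpha sum per collagen was 0.237 ± 0.00358 and 0.485 ± 0.0170, which is 2.05-fold lower. Without the division, the lysyl hydroxylase sum was 215 ± 1.87 FPKM in HFHG and 255 ± 6.60 FPKM in LG. The prolyl 4-hydroxylase alpha sum was 329 ± 2.43 and 371 ± 9.67 FPKM, and the collagen sum was 1387 ± 15.7 and 765 ± 8.96 FPKM. The collagen sum leaves out Col5a2, which was more abundant than each of the 3, at 880 ± 8.24 FPKM in HFHG and 640 ± 26.3 FPKM in LG. Its log2 fold change was smaller, at 0.46, and ratios that include it were not computed.

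**Figure D3:**
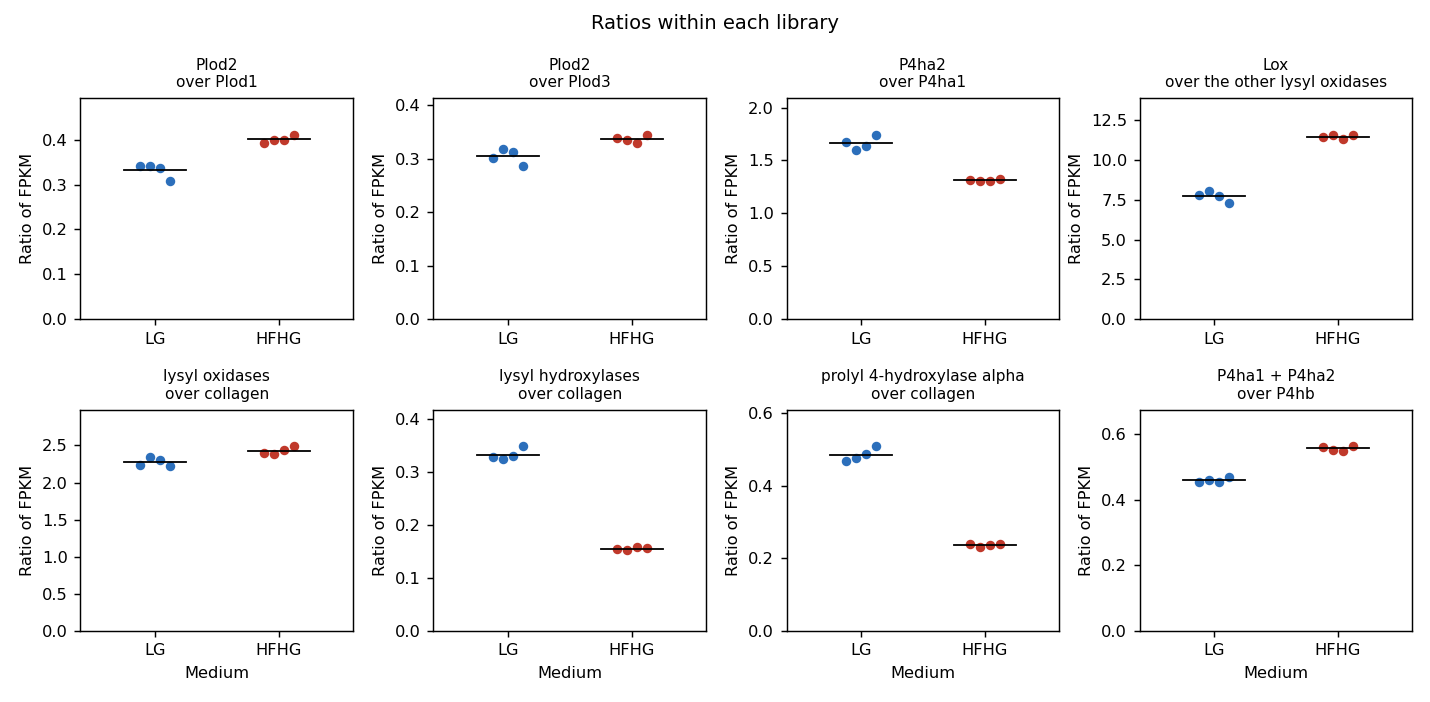
Ratios of FPKM within each library for LG (blue) and HFHG (red), 1 point per library with the mean as a black line, all axes from 0. Collagen is the sum of Col1a1, Col1a2 and Col3a1. The hydroxylase sums per collagen are 2.15-fold and 2.05-fold lower in HFHG, where the collagen sum itself is higher. The lysyl oxidase sum per collagen is 1.07-fold higher.

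Other genes of the same pathway were taken from lists, and each count is set beside the 34.0% higher and 30.8% lower of all genes tested. Of 14 other enzymes and chaperones of procollagen in the endoplasmic reticulum, 8 were higher and 6 lower in HFHG (median 0.12 on the log2 scale). The largest increase was that of P4ha3, the third alpha subunit of prolyl 4-hydroxylase, from 2.17 ± 0.309 to 6.92 ± 0.503 FPKM (1.64 on the log2 scale, adjusted p = 1.19e-08 by limma), a level far below those of P4ha1 and P4ha2. Fkbp10, which encodes a chaperone that assists telopeptide lysyl hydroxylation, followed with a log2 fold change of 0.78 (90.2 ± 2.07 against 52.4 ± 0.509 FPKM). P3h4, a component of the complex that hydroxylates helical lysines, rose by a similar amount (0.76). On the other side were P3h2, a prolyl 3-hydroxylase (-1.02, from 3.33 ± 0.469 to 1.59 ± 0.267 FPKM), and Colgalt2, a collagen galactosyltransferase (-0.84), both at low levels. Among the abundant genes, Ppib, the cyclophilin B isomerase of procollagen, fell from 502 ± 25.1 to 321 ± 3.77 FPKM (-0.65), while Serpinh1, the collagen chaperone HSP47, was 518 ± 5.43 and 472 ± 9.58 FPKM (0.13).

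Of the 15 genes of procollagen processing and export, 12 were tested, of which 9 were higher and 3 lower. Creb3l1, a transcription factor that drives collagen secretion, and Pcolce2, an enhancer of C-propeptide removal, rose most among them, with log2 fold changes of 0.75 and 0.70, the latter at a low level of 0.839 and 1.42 FPKM in LG and HFHG. Bmp1, the protease that removes the procollagen C-propeptide and also activates the Lox precursor, rose from 45.2 ± 1.03 to 66.7 ± 2.06 FPKM (0.56, adjusted p = 5.19e-09 by limma). Adamts14, an N-propeptidase, and Mia2, a receptor of the export machinery, had the lowest log2 fold changes (-0.87 and -0.59). The 5 tested genes of copper and ascorbate supply gave 1 higher and 2 lower. The copper transporter gene Slc31a1 fell (-0.36) and its relative Slc31a2 rose (0.31). Slc23a2, an ascorbate transporter, fell (-0.15), and the copper chaperone gene Atox1 was not called (0.12, adjusted p = 0.0533 by limma). Both calls depended on the setting. Slc23a2 was lost with FPKM rescaled to the same sum (limma adjusted p = 0.0849), and Atox1 was called higher with that scaling (0.00308), with quantile normalization (0.00354) and without LG replicate 4 (0.00496). Atp7a, the pump that loads copper onto secreted enzymes, was 6.64 ± 0.324 and 6.66 ± 0.697 FPKM (adjusted p = 0.996 by limma).

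Of 6 matrix proteins known to bind or scaffold lysyl oxidases, 3 were higher and 2 lower. Thbs1 rose most, from 806 ± 31.5 to 1821 ± 31.6 FPKM (log2 fold change 1.18), followed by Fmod (0.37), and Fn1, the fibronectin gene, fell from 809 ± 36.6 to 471 ± 17.6 FPKM (-0.78). Efemp2, which encodes fibulin-4, fell by 0.15 on the log2 scale, and was higher by 0.08 with quantile normalization. With quantile normalization 5 of the 6 were higher and 1 lower. All 5 tested fibrillar collagen genes rose, led by Col5a1 (1.45), with Col5a2 the lowest (0.46). Elastin, the other substrate of lysyl oxidases, was near 0, with Eln at 0.0485 ± 0.0272 FPKM in HFHG and 0.0304 ± 0.0202 FPKM in LG.

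Several of the 10 enzyme genes, among them P4ha1, P4ha2, Plod2 and Lox, are known targets of the hypoxia-inducible factors and of TGF-beta, so genes that respond to each were counted. Of 17 hypoxia response genes, 13 were lower and 3 higher in HFHG (median -0.44 on the log2 scale). With quantile normalization the counts were the same and the median was -0.20. Ero1a, an oxidase of disulfide formation, fell from 588 ± 23.2 to 203 ± 1.38 FPKM (-1.53). Hk2 (hexokinase) and Slc2a1 (the glucose transporter GLUT1) fell by 1.49 and 1.04 on the log2 scale, and Adm (adrenomedullin) rose by 0.97, Mxi1 by 0.15 and Ldha by 0.12. These genes respond to glucose and other signals too, and the role of either in the enzyme genes was not tested. Of 9 TGF-beta response genes, 5 were higher and 2 lower. Ltbp2, a matrix protein related to the TGF-beta binding proteins, rose from 18.6 ± 0.830 to 52.2 ± 0.906 FPKM (1.48) and Acta2 (smooth muscle actin) by 0.60, while Smad7 and Pmepa1, which encode feedback inhibitors of the pathway, fell by 0.23 and 0.13.

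**Figure D4:**
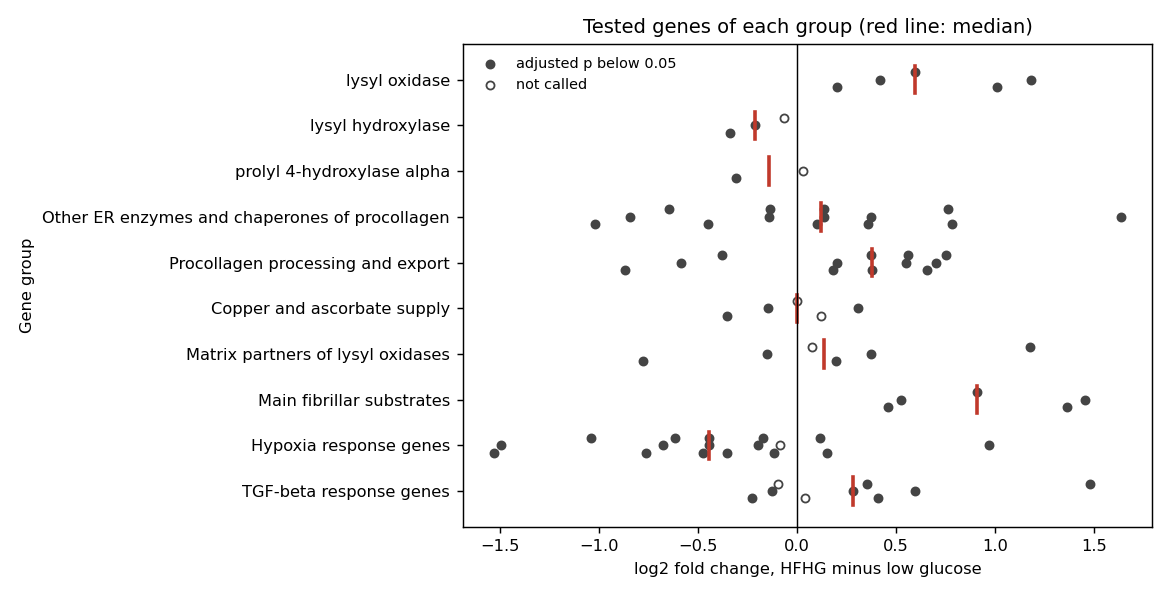
Log2 fold change (HFHG minus low glucose) of the tested genes of each family and list, 1 point per gene, with the median of each group as a red line. Filled points have an adjusted p-value below 0.05. The lysyl oxidases and the fibrillar substrates lie wholly to the right of 0, while 13 of 17 hypoxia response genes are lower.

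RefSeq promoter sequences (GRCm38.p6) were at hand for 5 of the 10 genes, and 4 are shown because they pair the alpha subunit that fell with the one that was not called, beside a lysyl hydroxylase that fell and a lysyl oxidase that rose. Each line is read 5′ to 3′ on the strand of the gene and ends at the base before the RefSeq start, or for Loxl4 at the base before the annotated exon. Capitals mark matches on either strand to the core of the hypoxia response element (ACGTG), the GC box (GGGCGG) and the CCAAT box. The regions are chr11:54100674-54100923 (P4ha2, plus strand), chr10:59323046-59323295 (P4ha1, plus strand), chr4:147936777-147937026 (Plod1, minus strand) and chr19:42612814-42613056 (Loxl4, minus strand). The P4ha2 region precedes its RefSeq start but lies inside the GENCODE span of the gene (54100095 to 54131665), unlike the other 3.
P4ha2: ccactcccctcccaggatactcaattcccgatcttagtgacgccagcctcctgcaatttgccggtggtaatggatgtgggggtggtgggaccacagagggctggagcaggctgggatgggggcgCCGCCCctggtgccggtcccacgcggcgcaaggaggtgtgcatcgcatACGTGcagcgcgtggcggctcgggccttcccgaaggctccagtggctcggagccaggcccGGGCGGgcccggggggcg
P4ha1: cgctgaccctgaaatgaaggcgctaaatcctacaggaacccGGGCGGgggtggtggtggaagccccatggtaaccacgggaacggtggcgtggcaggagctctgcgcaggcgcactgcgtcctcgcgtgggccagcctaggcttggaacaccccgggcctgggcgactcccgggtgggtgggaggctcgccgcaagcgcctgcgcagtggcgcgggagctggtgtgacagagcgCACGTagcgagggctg
Plod1: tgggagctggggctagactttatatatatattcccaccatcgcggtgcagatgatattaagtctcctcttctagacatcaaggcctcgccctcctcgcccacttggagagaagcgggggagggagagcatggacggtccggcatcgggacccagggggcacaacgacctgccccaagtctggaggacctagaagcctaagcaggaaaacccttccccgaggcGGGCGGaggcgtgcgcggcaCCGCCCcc
Loxl4: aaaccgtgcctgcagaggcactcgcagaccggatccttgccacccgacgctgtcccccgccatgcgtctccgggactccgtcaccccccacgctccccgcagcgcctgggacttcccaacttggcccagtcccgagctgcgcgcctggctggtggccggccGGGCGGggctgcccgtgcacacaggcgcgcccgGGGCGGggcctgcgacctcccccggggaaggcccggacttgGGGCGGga

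In the 250 bases before the start, ACGTG was found once in P4ha2, once in P4ha1 and once in Plod3, whose promoter is shared with a neighbour and is not shown, and in neither Plod1 nor Loxl4. It was present in 16.6% of all 32851 promoters of this length. The GC box occurred 2 times in P4ha2, once in P4ha1, 2 times in Plod1 and 3 times in Loxl4, compared with at least 1 match in 32.7% of all promoters. The CCAAT box was found only in Plod3 among these 5 promoters (33.8% of all). The TATA box (TATAAA), which is not in capitals above, had 1 match, in Plod1, and is held by 12.4% of all promoters. No match to the endoplasmic reticulum stress response element was found in these windows, and 0.113% of all promoters hold one. These matches describe letters and not bound sites.

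The counting program is not given in the sources used here, so whether it used the strand is unknown. Lox, Loxl2, Loxl3, Plod2 and Plod3 overlap annotated genes on the other strand, and reads from these could not be told apart if it did not.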

How the data were processed

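mRNA libraries (stranded VAHTS kit, Illumina NovaSeq) of 4 HFHG and 4 LG cultures were analysed, grouped by their labels. The authors deposited FPKM values of 19301 genes, 1 column per library, without pooling. The submitters' processing notes name HISAT2 2.1.0 and mm10, and the counting program, annotation and filters are not given in the sources used here. Library totals and gene lengths were recovered from the FPKM as the values that give whole reads in all libraries (19300 of 19301 genes, within 0.01 reads). They were used to describe read numbers and for 1 alternative.

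Genes with at least 0.5 FPKM in at least 4 libraries were tested, and log2(FPKM + 0.1) was compared with limma 3.58.1 in R 4.3.3 (lmFit, eBayes with trend, no covariate). Fold changes are on this scale, which understates those of low genes. P-values were adjusted over all genes tested. The fit and the recovery were tested on simulated data. Ratios were compared with exact permutation tests (scipy 1.17.1). The text names all 10 enzyme genes, the partners of the ratios and, per list, genes with an adjusted p-value below 0.05 and a log2 fold change beyond 1 as well as the 2 highest and 2 lowest. Markers of cell types were described by list. P3h4, Serpinh1, Bmp1, Ppib, Atp7a, Eln, Ldha and the markers given with values were also named after their values were seen. The members and lists were chosen with earlier results of these data known. Positions are from GENCODE M21 (GRCm38). No column of values was left unused. Alternatives were other pseudocounts, filters and scalings, a replicate block, robust eBayes, voom on the recovered reads and each library left out.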

Additional observations from a re-analysis of the deposited data

Results flagged for a closer look

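In 44 sets of 4 values (the 10 enzyme genes, P4hb, Col1a1, Col1a2, Col3a1 and the 8 ratios, each in HFHG and in LG), 5 had a library far from the others by Dixon's criterion, where chance alone flags about 1 set in 20. Loxl2 was 60.7 FPKM in LG replicate 3 and 56.2 to 56.8 FPKM in the other LG replicates. Plod2 was 34.0 FPKM in LG replicate 4, below the 35.1 to 35.2 FPKM of the others, and the ratio of Plod2 to Plod1 in the same library was 0.308, with the others at 0.336 to 0.342. P4ha1 was 143 FPKM in HFHG replicate 1 and 142 FPKM in the others, and Col3a1 was 224 FPKM in HFHG replicate 4 and 229.8 to 230.8 FPKM in the others.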

How the results depend on the processing

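The log2 fold changes of Lox, Loxl1, Loxl2, Loxl3, Loxl4, Plod1, Plod3 and P4ha2 kept their direction and their side of the threshold under all 18 alternatives, the fits that each left out 1 library included. Plod2 passed the threshold in 5 of the 18 and P4ha1 in 2. The number of genes with a log2 fold change above 1 was 431, and 197 with a pseudocount of 1, which shrinks the fold changes of low genes. Without LG replicate 4, the library that stood apart, 5 of the 10 enzyme genes were higher and 4 lower. The replicate block gave 3841 genes higher and 3501 lower over all genes tested, and changed no call of the 10. Deviations from the group means correlated between same-numbered libraries by -0.07 to -0.01, and between differently numbered ones by -0.05 to 0.07. No pairing by number was visible, but correlations near 0 cannot exclude one. With quantile normalization, added after the data were seen, 7 of the 8 ratios kept their direction and their exact permutation p of 0.0286, and that of P4ha1 and P4ha2 to P4hb reversed from 0.28 to -0.037 on the log2 scale. The ratios moved by less than the spread between replicates when 1 library was left out, but 4 against 3 libraries cannot give a permutation p-value below 0.0571, nor a paired sign-flip test with the replicate block one below 0.125.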
